A study of Oryctolagus cuniculus with 12 samples.

Results

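The genes described here repair crosslinked or otherwise damaged DNA, and their RNA was measured in rabbit conjunctiva, the thin mucous membrane over the white of the eye, in eyes with and without glaucoma filtration surgery. The genes were chosen by name from a gene table of 20566 rows. A row was taken when it was a Fanconi anemia (FANC) gene, a RAD50-series, XRCC, ERCC, MSH or MLH gene, BRCA1 or BRCA2, the polymerase POLH, POLI, POLK, POLN or POLQ, or one of REV1, REV3L, BRIP1, PALB2, ATM, ATR, CHEK1, CHEK2, XPC, XPA, DDB2, SLX4, BLM and EXO1. In all, 64 rows had such a name, and 61 of them reached 10 counts in at least 3 of the 12 libraries. The 58 repair genes described here are all of these but 3, and each was among the 14835 genes tested. At the edge of the count rule, MSH4 was inside with 3 to 33 counts per library, RAD51AP2 was outside with 0 to 27, MSH5 was outside with 0 to 10, and FANCD2OS was outside with 0 to 5. EXO1 was not analysed here.

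The study operated on the right eye of female Japanese white rabbits, 12 to 14 weeks old, and took the conjunctiva for RNA sequencing. The operation was trabeculectomy (TL), in which a flap is cut in the sclera so that fluid drains from the eye into a blister under the conjunctiva. There were 4 groups of 3 libraries: conjunctiva of unoperated left eyes (control), and operated conjunctiva taken at 3 hours (TL3h), at 3 days (TL3d) or at 14 days (TL14d). All 3 operated groups also received mitomycin C on sponges during surgery, a betamethasone injection under the conjunctiva and an antibiotic ointment. No group had the surgery without these drugs, so the effects of surgery, mitomycin C and betamethasone cannot be told apart. The labels do not say at which time a control eye was taken, which operated eye it belongs to, or that the libraries of a group came from separate animals, so the p-values measure the spread between these libraries only.

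Mitomycin C is an alkylating drug that joins the opposite strands of DNA, and such a crosslink blocks both replication and transcription. In the textbook pathway, FANCM finds a replication fork stalled at the crosslink, and the Fanconi core complex, with FANCL as its ligase, attaches ubiquitin to the FANCD2 and FANCI pair (the ID2 complex). SLX4 then gathers nucleases such as ERCC4 with ERCC1 to unhook the crosslink, translesion polymerases copy past it, and the broken strand is repaired by recombination, in which BRCA2 takes part. Outside replication, nucleotide excision repair removes bulky lesions from DNA. Many of the recombination and Fanconi genes are known to be transcribed mainly in dividing cells.

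Total counts ranged from 27111348 to 38591425 per library, at which 3 counts correspond to 0.0712 to 0.124 CPM (counts scaled to a common library size). The TMM factors, which rescale the libraries against a shift in RNA composition, lay between 0.768 and 0.783 for TL3h and between 1.03 and 1.13 for the other groups. Some libraries stood apart. The 16 genes of a p53 target list summed to 1340 CPM in TL14d replicate 1, near the 1014 to 1381 CPM of the controls, against 3465 and 2328 CPM in the other TL14d libraries. Skeletal muscle markers summed to 271 CPM in control replicate 2 and 299.6 CPM in TL3d replicate 3, and to at most 6.80 CPM in every other library. Control replicate 3 had the lowest sum of 20 proliferation markers among the controls (278 CPM against 493 and 568 CPM). Epithelial markers were found in every library (5727 to 21934 CPM summed over 9 genes).

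The levels of the repair genes in the control conjunctiva were ordered per transcript length with the authors' FPKM values. The median over the 58 genes was 3.22 FPKM, against 7.40 FPKM over all genes tested. XPC, the subunit that recognizes distorted DNA in excision repair, was highest (39.0 ± 13.6 FPKM, SD, n = 3). ERCC3, a helicase of the transcription factor TFIIH, followed with 22.1 ± 2.33 FPKM and DDB2, which binds ultraviolet lesions ahead of XPC, with 21.1 ± 7.82 FPKM. ERCC3 and DDB2 overlapped within their SD, as did DDB2 and XPC, while the intervals of XPC and ERCC3 did not meet. The lowest levels belonged to MSH4, a meiotic mismatch-repair homolog (0.0661 ± 0.0239 FPKM), and to the polymerase POLQ (0.181 ± 0.0559 FPKM). BRCA1 ranked 51 of 58 (0.727 ± 0.438 FPKM) and RAD51AP1 ranked 50 (0.839 ± 0.242 FPKM).

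**Figure D1:**
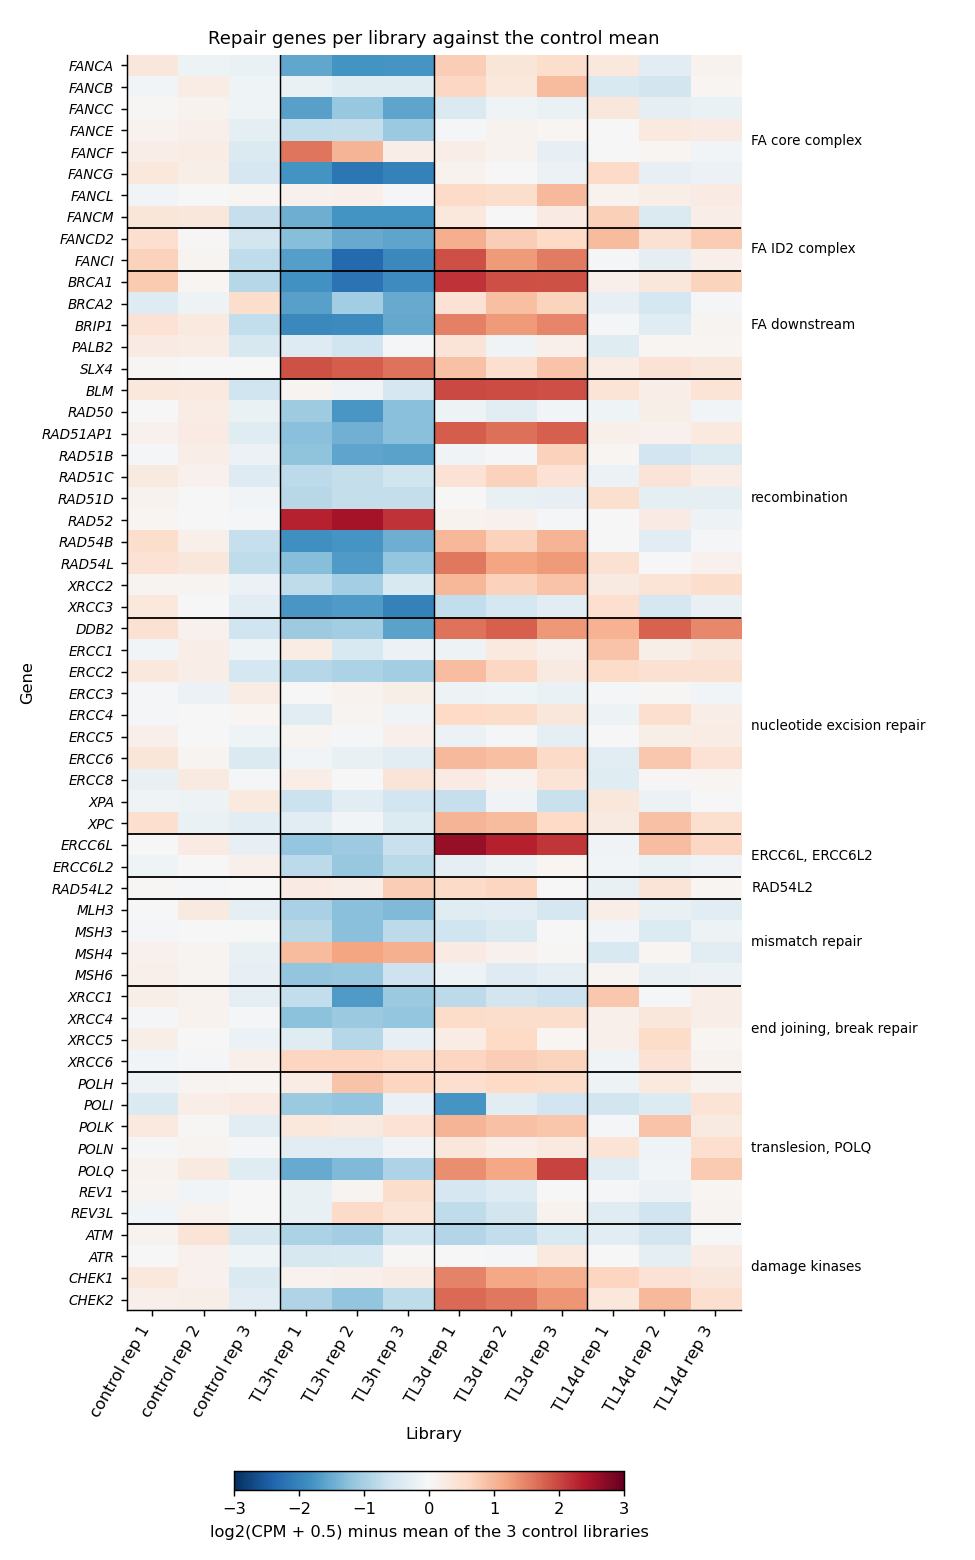
Level of each of the 58 repair genes (rows, grouped by role) in each of the 12 libraries (columns), as log2(CPM + 0.5) minus the mean of the 3 control libraries; blue is below and red above the control mean. The TL3h columns are mostly blue, 15 of the 58 genes are above the controls on average there with RAD52 and SLX4 the deepest red, and the TL3d columns are mostly red in the Fanconi ID2 and recombination rows and in CHEK1 and CHEK2.

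At 3 hours after surgery most repair genes were lower than in the control eyes. Of the 58 repair genes, 31 fell and 6 rose at q of at most 0.05 (edgeR quasi-likelihood test, Benjamini-Hochberg adjustment over all 14835 genes). Among all genes tested, 45.4% were called in this comparison, 23.2% as higher and 22.2% as lower. Set beside these shares, the counts of repair genes are a description without a test. The median log2 fold change of the repair genes was −0.89, against 0.02 over all genes tested. The TL3h and control libraries did not overlap for 35 repair genes that were lower and 6 that were higher, where 28.3% and 28.9% of all genes did so. With 3 libraries against 3, an exact permutation test of a single gene cannot go below p = 0.1.

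In the Fanconi core complex, 5 of 8 genes fell and 1 rose. FANCA fell from 6.24, 4.30 and 4.14 CPM in the controls to 1.31, 1.04 and 1.06 CPM (log2 fold change -2.10 ± 0.27, SE, q = 0.00024). FANCG fell by 2.28 on the log2 scale, FANCM, the fork-binding translocase, by 2.08, FANCC by 1.66 and FANCE by 1.12. FANCF, an adaptor of the core complex, went the other way, from 4.84, 4.98 and 2.96 CPM to 13.6, 8.96 and 4.87 CPM. The FANCF libraries at 3 hours spread from 4.87 to 13.6 CPM, and the lowest lay within the control range. Its call (log2 fold change 1.10, q = 0.0275) was lost without TL3h replicate 1 (q = 0.155). FANCB (-0.39) and the ligase FANCL (0.11) did not pass the test.

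Both genes of the ID2 complex fell. FANCD2 measured 49.4, 35.5 and 23.7 CPM in the controls and 14.1, 11.8 and 11.3 CPM at 3 hours (log2 fold change -1.55 ± 0.26, q = 0.001). FANCI went from 13.6, 8.78 and 4.64 CPM to 2.31, 1.24 and 1.79 CPM (log2 fold change -2.34 ± 0.39, q = 0.000982). No TL3h library reached a control library for either gene. FANCI overlaps POLG on the opposite strand and its counts were fractional in all libraries, so part of its reads was shared out by an estimate.

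Among the downstream Fanconi genes, 3 of 5 fell and 1 rose. BRCA1, which acts in strand resection, showed the largest decrease of the 58 genes. It measured 8.62, 5.003 and 2.38 CPM in the controls and 0.999, 0.622 and 0.915 CPM at 3 hours, which is 6.28-fold lower (log2 fold change -2.65 ± 0.42, q = 0.000765). The helicase BRIP1 fell by 2.36 (q = 0.000575) and BRCA2, which acts in recombination, by 1.52 (q = 0.00183). PALB2, which bridges BRCA1 and BRCA2, had a log2 fold change of -0.38 and did not pass (q = 0.247).

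SLX4, the scaffold of the unhooking nucleases, rose at 3 hours. Its levels were 6.60, 6.33 and 6.40 CPM in the controls and 25.7, 23.98 and 20.8 CPM at 3 hours, 3.65-fold higher (log2 fold change 1.87 ± 0.16, q = 3.89e-05). The control libraries lay within 0.270 CPM of each other, and the lowest TL3h library was 3.16 times the highest of them. All 3 tested SLX4 transcripts had positive fold changes, and 2 of them were called.

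Of the 11 genes of homologous recombination, which rebuilds a broken strand from an intact copy, 9 fell and 1 rose. RAD51AP1, a cofactor of strand invasion, went from 2.71, 3.03 and 1.78 CPM to 0.730, 0.581 and 0.732 CPM (log2 fold change -1.87 ± 0.25, q = 0.000276). The chromatin remodeler RAD54B fell by 2.18, the recombination mediators XRCC3 by 1.96 and RAD51B by 1.83, the remodeler RAD54L by 1.73 and RAD50, a subunit of the break-sensing MRN complex, by 1.36. The mediators XRCC2, RAD51C and RAD51D fell by 0.94, 0.86 and 0.78. The call on RAD51C was lost without control replicate 1 (q = 0.0901), and that on XRCC2 when the 6 TL3h and control libraries were fitted alone (q = 0.0511). BLM, a helicase that dissolves recombination intermediates, did not pass (10.3, 9.98 and 5.14 CPM against 8.65, 7.51 and 5.56 CPM, log2 fold change -0.22, q = 0.51). XRCC3 overlaps KLC1 on the opposite strand, RAD54B overlaps FSBP on its own strand, and XRCC3 counts were fractional in all libraries.

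RAD52, which anneals single strands, rose more than any other of the 58 genes. It measured 14.5, 13.7 and 13.6 CPM in the controls and 70.4, 80.8 and 63.9 CPM at 3 hours (5.14-fold, log2 fold change 2.36 ± 0.14, q = 1.81e-05). The controls lay within 0.882 CPM of each other, and the lowest TL3h library was 4.41 times the highest of them. RAD52 lies at chr8:36752253-36779447 (OryCun2.0), and no other gene of the table overlaps it. Of its 4 tested transcripts, 3 were called higher, with log2 fold changes of 2.07, 2.51 and 3.60, and the fourth had 4.21 (q = 0.0847).

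**Figure D2:**
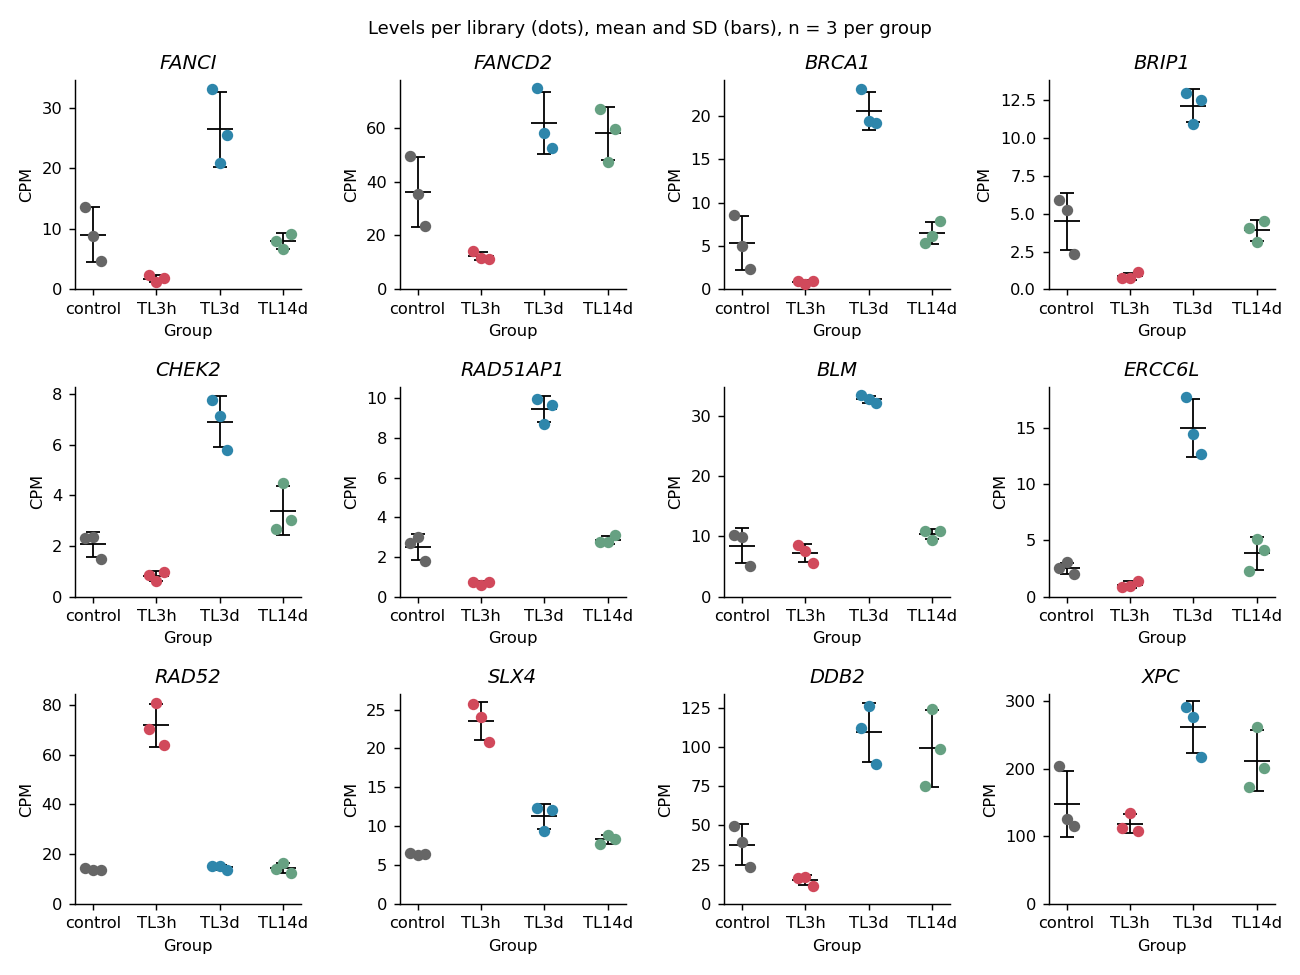
Level in CPM of 12 repair genes in each library (dots) with the group mean and SD (bars, n = 3 per group). FANCI, BRCA1, BRIP1, CHEK2, ERCC6L and RAD51AP1 are low at 3 hours and high at 3 days, RAD52 and SLX4 are highest at 3 hours, and DDB2 is high at both 3 and 14 days.

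Mismatch repair acts on mispaired bases left by replication. Of the 4 genes listed under this role, 3 fell at 3 hours, and the meiotic homolog MSH4 rose. MSH6, which recognizes single mispairs, went from 69.8, 66.01 and 52.9 CPM to 27.2, 28.3 and 40.5 CPM (log2 fold change -0.97 ± 0.18, q = 0.00165). MLH3 fell by 1.22 and MSH3, which recognizes small loops, by 0.98. MSH6 overlaps a gene on the opposite strand, and its counts were fractional in all libraries. MSH4 rose from 0.403, 0.375 and 0.201 CPM to 1.08, 1.37 and 1.21 CPM, at most 33 counts in any library.

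Nucleotide excision repair was the role with the smallest share of calls among the roles with at least 5 genes. Only DDB2 and ERCC2, a helicase of TFIIH, passed of its 10 genes, and both fell. DDB2 measured 49.6, 39.3 and 23.7 CPM in the controls and 16.6, 17.2 and 11.5 CPM at 3 hours (log2 fold change -1.31 ± 0.29, q = 0.00454). ERCC2 fell by 1.02 (q = 0.00546), with fractional counts in all libraries. The other 8 genes had log2 fold changes between −0.54 (XPA) and 0.20 (ERCC8). XPC measured 204, 125 and 114 CPM in the controls and 113, 135 and 108 CPM at 3 hours, and these ranges overlapped (q = 0.311). The unhooking nuclease pair ERCC4 (-0.11 ± 0.18, q = 0.654) and ERCC1 (-0.13 ± 0.25, q = 0.706) did not pass.

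The translesion polymerases, which copy past damaged bases, also held few calls, with 1 of 7 genes higher and 1 lower. POLH rose from 8.497, 10.01 and 9.93 CPM to 11.03, 17.6 and 15 CPM (log2 fold change 0.62 ± 0.20, q = 0.0258), a call lost without TL3h replicate 2 (q = 0.138). POLQ, which joins broken ends through short homologies, fell by 1.99 from 1.85, 2.15 and 1.20 CPM to 0.269, 0.373 and 0.659 CPM. REV1 (0.17, q = 0.522) and REV3L (0.29, q = 0.417), which together extend the bypass, did not pass.

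In end joining and single-strand break repair, the ligase partner XRCC4 fell by 1.32 and the scaffold XRCC1 by 1.17, while XRCC6, a subunit of the Ku ring, rose. XRCC6 measured 29.4, 29.9 and 34.5 CPM in the controls and 48.9, 49.1 and 46.9 CPM at 3 hours (log2 fold change 0.63 ± 0.14, q = 0.00437). Its partner XRCC5 had a log2 fold change of -0.48 and did not pass (q = 0.0923). Among the damage kinases, CHEK2 fell by 1.33 and ATM by 0.91, while ATR (-0.29) and its effector CHEK1 (0.13) did not pass. The mitotic helicase ERCC6L fell by 1.26 and ERCC6L2 by 0.92. RAD54L2 carries a RAD54-like name but acts on transcription, and it did not pass at any time.

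The scaling touched these directions. With the library size alone in place of TMM, the median of all genes at 3 hours moved from 0.02 to −0.47, and the repair genes split into 3 higher and 43 lower. In that fit 7563 of the 14835 genes tested were called, against 6733 with TMM. FANCF (q = 0.209), XRCC6 (q = 0.444) and POLH (q = 0.644) then lost their calls as higher, while RAD52, SLX4 and MSH4 remained higher, and no called repair gene changed direction.

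**Figure D3:**
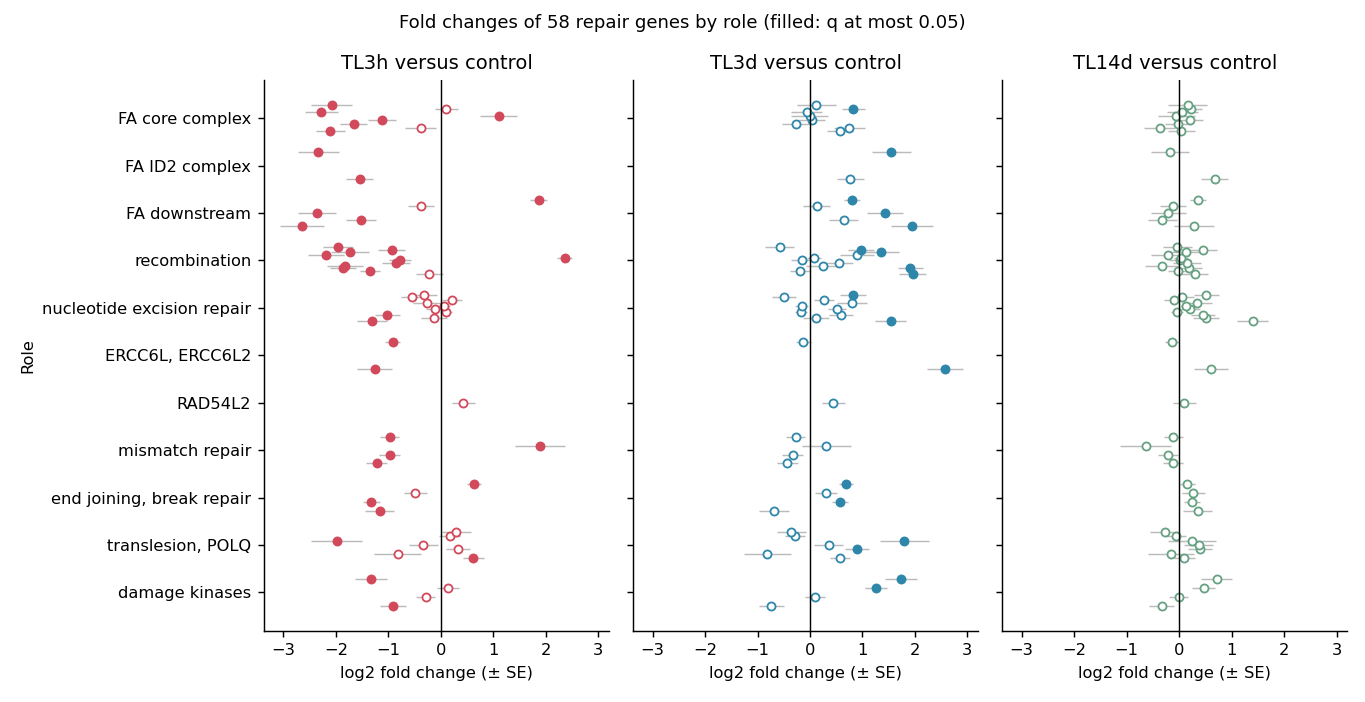
Log2 fold change of each repair gene (dots, with SE) for TL3h, TL3d and TL14d against the control, by role; filled dots have q of at most 0.05. The 3-hour panel has 31 filled dots left of 0 and 6 right of it, the 3-day panel has 18 right of 0, and the 14-day panel has none.

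At 3 days after surgery 18 repair genes were higher than in the controls and none was lower at the threshold. Among all genes tested, 17.6% were called, 10.6% as higher and 7% as lower. The median log2 fold change of the repair genes was 0.40, against −0.0018 over all genes. The TL3d libraries lay wholly above the controls for 27 repair genes and wholly below them for 3, where 23.8% and 21.7% of all genes did so. At an unadjusted p below 0.05, 30 repair genes passed, where 36.2% of all genes did. DESeq2 called 25 repair genes, of which 1 was lower, and 30.1% of all genes. The count depended on single libraries: it was 10 without control replicate 1, 5 without control replicate 2, 6 without TL3d replicate 1 and 6 without TL3d replicate 2. The calls over all genes in these fits are not given here. BLM, CHEK1, CHEK2, ERCC6L and RAD51AP1 passed in each of the 12 fits that left out 1 library.

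The recombination genes held 4 of the 18 calls. RAD51AP1 measured 2.71, 3.03 and 1.78 CPM in the controls and 9.94, 8.71 and 9.68 CPM at 3 days, 3.77-fold higher (log2 fold change 1.91 ± 0.24, q = 0.00695). BLM measured 33.4, 32.8 and 32.2 CPM at 3 days against 10.3, 9.98 and 5.14 CPM in the controls (log2 fold change 1.96 ± 0.26, q = 0.00794). The lowest TL3d library was 2.88 times the highest control for RAD51AP1 and 3.14 times for BLM. RAD54L (1.35, q = 0.0291) and XRCC2 (0.97, q = 0.0295) also rose. RAD52 was back at 15.1, 15.3 and 13.5 CPM, overlapping the controls (log2 fold change 0.07, q = 0.742).

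In the Fanconi genes, FANCI, BRCA1, BRIP1, SLX4 and FANCL rose. FANCI measured 33.1, 20.8 and 25.4 CPM at 3 days against 13.6, 8.78 and 4.64 CPM (log2 fold change 1.55 ± 0.37, q = 0.0237). BRCA1 measured 23.0, 19.4 and 19.2 CPM against 8.62, 5.003 and 2.38 CPM, 3.85-fold higher (q = 0.0161). Both were above every control library, but both calls were lost in 3 of the 12 fits that left out a library. BRIP1 rose by 1.43, SLX4 by 0.80 and FANCL by 0.83. FANCD2, the partner of FANCI, measured 74.6, 57.8 and 52.6 CPM against 49.4, 35.5 and 23.7 CPM and did not pass (log2 fold change 0.77 ± 0.25, q = 0.0612). BRCA2 (0.64, q = 0.123), FANCA (0.57, q = 0.137) and FANCM (0.12, q = 0.839) did not pass either.

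The damage-recognition genes DDB2 and XPC were the called genes of excision repair at 3 days, and both rose. Both are known targets of p53 in human cells. DDB2 measured 112, 126 and 89.4 CPM against 49.6, 39.3 and 23.7 CPM in the controls (log2 fold change 1.54 ± 0.29, q = 0.0137). XPC measured 291, 276 and 217 CPM against 204, 125 and 114 CPM (log2 fold change 0.82 ± 0.24, q = 0.0435), and its call was lost in 8 of the 12 fits that left out a library and with the library size alone (q = 0.0605). The other 8 excision repair genes had log2 fold changes from −0.50 (XPA) to 0.80 (ERCC6, q = 0.0714).

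The checkpoint kinases CHEK1 and CHEK2, which halt the cell cycle on damage, rose together. CHEK1 measured 10.8, 9.41 and 6.20 CPM in the controls and 24.8, 19.7 and 18.4 CPM at 3 days (log2 fold change 1.26 ± 0.21, q = 0.011). CHEK2 measured 2.33, 2.38 and 1.505 CPM and 7.79, 7.14 and 5.81 CPM (log2 fold change 1.74 ± 0.30, q = 0.0114). Their upstream kinases did not pass, with ATM at -0.74 (q = 0.0571) and ATR at 0.10 (q = 0.741). ERCC6L, which clears DNA bridges in mitosis, had the largest increase of the 58 genes, from 2.49, 3.03 and 2.03 CPM to 17.8, 14.5 and 12.7 CPM (5.94-fold, q = 0.00794).

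POLQ (1.80, q = 0.0293) and the bypass polymerase POLK (0.89, q = 0.0284) rose among the polymerases. XRCC6 (0.68, q = 0.0157) and XRCC4 (0.56, q = 0.0346) rose in end joining. POLH, at 13.7, 14.6 and 14.0 CPM against 8.497, 10.01 and 9.93 CPM, lay above all controls but did not pass (q = 0.0671). None of the 4 mismatch repair genes passed at 3 days. MSH6 was at 55.9, 47.9 and 52.1 CPM against 69.8, 66.01 and 52.9 CPM in the controls, with a log2 fold change of -0.28 ± 0.18 (q = 0.283).

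The 3-day and 3-hour groups were then compared directly, a contrast that does not use the controls as its reference. Here 37 repair genes were higher at 3 days and 4 were lower, while 37.3% of all genes were called, 18.4% as higher and 19% as lower. The median log2 difference of the repair genes was 0.92, against −0.05 over all genes. All 8 core complex genes, both ID2 genes and all 11 recombination genes passed. With the library size alone, 45 were higher and 2 lower, while the median of all genes moved to 0.43. The calls over all genes then rose from 5537 to 6311.

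Of the 10 genes with the largest increases, 6 act in recombination or the Fanconi pathway, and the others were ERCC6L, POLQ, CHEK2 and DDB2. BRCA1 differed by 4.59 ± 0.46 on the log2 scale (mean and SD of 20.5 ± 2.16 CPM in TL3d and of 0.845 ± 0.198 CPM in TL3h, q = 7.55e-05). FANCI differed by 3.89, ERCC6L by 3.83, BRIP1 by 3.80, POLQ by 3.79 and RAD51AP1 by 3.79. RAD54B, RAD54L and CHEK2 each differed by 3.07, and DDB2 by 2.85. For each of these genes the lowest TL3d library was above the highest TL3h library. FANCD2 was also higher at 3 days (2.32, q = 0.000163).

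RAD52, MSH4, FANCF and SLX4 were lower at 3 days than at 3 hours. RAD52 differed by -2.29 ± 0.14 (q = 1.54e-05), MSH4 by -1.58 (q = 0.0236), FANCF by -1.11 (q = 0.033) and SLX4 by -1.06 (q = 0.000599). Against the controls at 3 hours the same 4 had log2 fold changes of 2.36, 1.89, 1.10 and 1.87, and the TL3h libraries enter both comparisons. With the library size alone FANCF (q = 0.198) and MSH4 (q = 0.0911) lost this call. XRCC6 (0.05, q = 0.791) and POLH (-0.05, q = 0.869), which were above the controls at 3 hours, did not pass between these times.

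**Figure D4:**
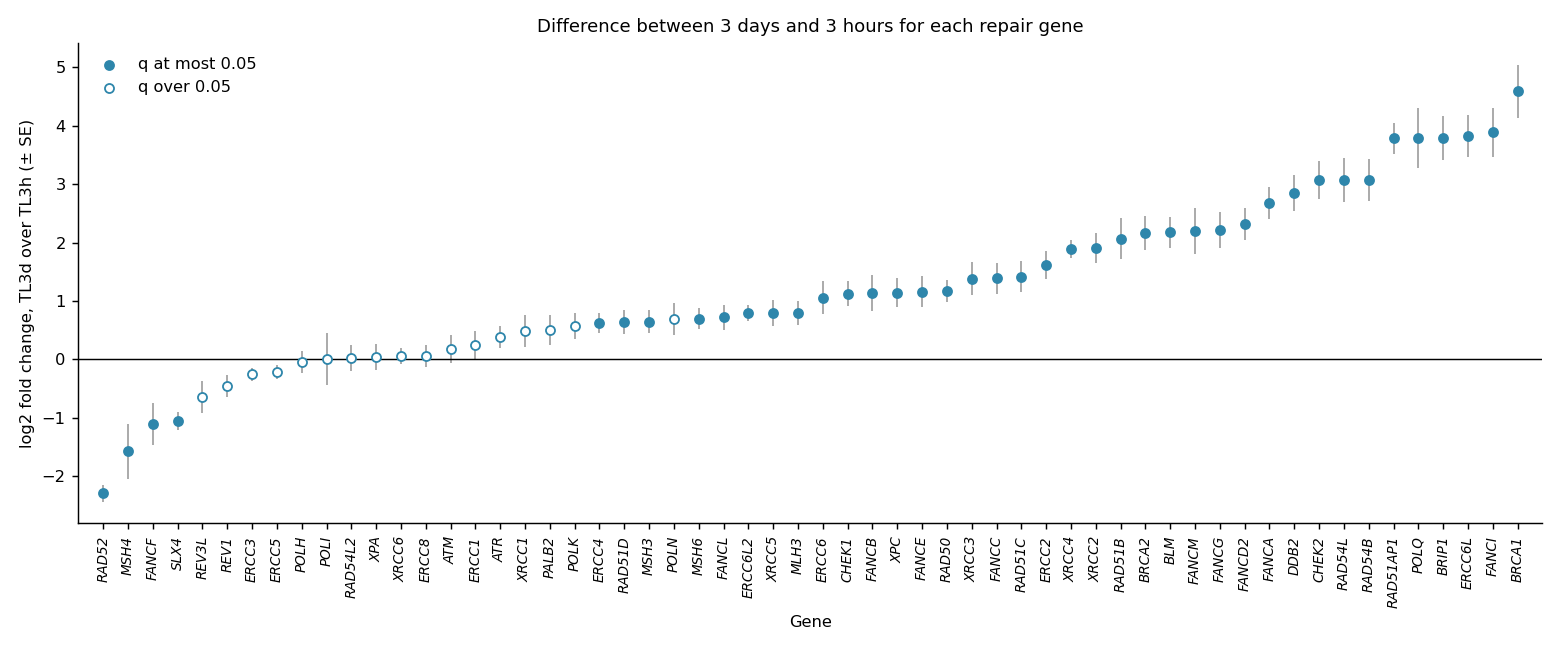
Log2 fold change between TL3d and TL3h for each of the 58 repair genes (dots, with SE), in order of size; filled dots have q of at most 0.05. The order runs from RAD52 at −2.29 to BRCA1 at 4.59, with 37 filled dots above 0 and 4 below.

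At 14 days no repair gene passed the edgeR test against the controls, and neither did any other gene tested (0% called). At an unadjusted p below 0.05, 4 repair genes and 1538 of all genes passed (10.4%), and DESeq2 called 1 repair gene, DDB2, and 367 of all genes (2.47%). The TL14d libraries lay wholly above the controls for 8 repair genes and wholly below for 1, where 6.03% and 5.11% of all genes did so. DDB2 measured 74.9, 124 and 98.3 CPM at 14 days against 49.6, 39.3 and 23.7 CPM in the controls (log2 fold change 1.40 ± 0.29, q = 0.346). Its lowest TL14d library was 1.51 times its highest control. Of the fits that left out 1 library, DDB2 passed only in the one without TL14d replicate 1, the library with its lowest 14-day level (q = 0.0253, with 716 or 4.74% of all genes called), and its q was 0.978 without TL14d replicate 2. FANCD2 measured 66.9, 47.4 and 59.5 CPM against 49.4, 35.5 and 23.7 CPM (log2 fold change 0.68 ± 0.25, q = 0.422), and its libraries overlapped. CHEK2 measured 2.66, 4.51 and 3.03 CPM against 2.33, 2.38 and 1.505 CPM (log2 fold change 0.72 ± 0.30, q = 0.457). XPC had a log2 fold change of 0.52, BRCA1 of 0.28 and RAD52 of 0.03.

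Between 3 and 14 days 5 repair genes fell and none rose, where 1.59% of all genes were called lower. ERCC6L went from 17.8, 14.5 and 12.7 CPM to 2.29, 5.14 and 4.10 CPM (log2 fold change -1.96 ± 0.33, q = 0.0263). FANCI fell by 1.73, RAD51AP1 by 1.72, BLM by 1.66 and BRIP1 by 1.64. Of the 12 fits that left out a library, the call was lost in 11 for BRIP1, 10 for FANCI, 4 for BLM, 4 for ERCC6L and 3 for RAD51AP1. With the library size alone BRIP1 (q = 0.0516) and FANCI (q = 0.054) also missed the threshold, and so did BRIP1 with the replicate number as a block (q = 0.0642). These genes carry out recombination or crosslink repair, apart from the mitotic helicase. BRCA1 fell from 23.0, 19.4 and 19.2 CPM to 5.38, 6.19 and 7.88 CPM but missed the threshold (log2 fold change -1.66, q = 0.0591). DDB2 did not pass between these times (log2 fold change -0.14 ± 0.28, q = 0.804), nor did FANCD2 (-0.09 ± 0.25, q = 0.862). DESeq2 called 17 repair genes here, and 12.5% of all genes. The count of 5 rested on single libraries: it was 0 without TL3d replicate 1, TL3d replicate 2 or TL14d replicate 3, 1 without TL14d replicate 1, 3 without control replicate 2, TL3d replicate 3 or any 1 of the TL3h libraries, and 9 without control replicate 3. The calls over all genes also fell, from 332 to 67, without TL14d replicate 1. For the other fits the calls over all genes are not given here.

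Over the 4 groups, 43 of the 58 repair genes had their lowest mean at 3 hours (74.1%), where 35.6% of all genes did. The highest mean was at 3 days for 32 of them (55.2%), where 20.1% of all genes did. Both held for 26 repair genes (44.8%), and for 10.3% of all genes. Summed over the 58 genes, the level of the controls was 1257 ± 148 CPM (SD, n = 3), which compares with 1055 ± 40.1 CPM for TL3h, 1651 ± 72.1 CPM for TL3d and 1448 ± 83.7 CPM for TL14d. XPC alone made up 148, 119, 261 and 212 CPM of these sums.

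Many genes of cell division moved over the same groups. Of the 20 proliferation markers, 16 fell and 1 rose at 3 hours, 12 rose and none fell at 3 days, and 5 fell and none rose between 3 and 14 days. Of all genes, 22.2% were called lower at 3 hours, 10.6% higher at 3 days and 1.59% lower between 3 and 14 days. In the direct test of 3 days against 3 hours, 19 of the 20 markers were higher and none lower, where 18.4% of all genes were called higher. The sum of the markers was 278 to 568 CPM in the controls, 168 to 194 CPM at 3 hours, 904 to 1152 CPM at 3 days and 489 to 600 CPM at 14 days. None of the markers was at 0 in any library. The cyclin gene CCNB1, for example, was at -2.58 at 3 hours and 1.88 at 3 days on the log2 scale, and the licensing factor CDC6 at 1.41 and 2.15. Their part in the changes of the repair genes was not tested. In bulk tissue, fewer cells of a type and less RNA per cell cannot be told apart.

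Of the 16 p53 targets, 10 rose and none fell at 3 hours, and 12 rose and none fell at 3 days, where 23.2% and 10.6% of all genes were called higher. At 14 days none passed, while 11 of 16 had an unadjusted p below 0.05, against 10.4% of all genes, and 15 had positive log2 fold changes (median 1.02). Of the 6 that did not pass at 3 hours, 3 had negative log2 fold changes, down to −0.49. The cyclin-dependent kinase inhibitor CDKN1A was at 3.45 at 3 hours and 3.53 at 3 days on the log2 scale, and MDM2, the ligase that limits p53, was at 1.65 and 2.20. The 16 genes summed to 2877 to 3744 CPM at 3 hours and 3753 to 4896 CPM at 3 days. Over the same times DDB2 was at −1.31 at 3 hours, where it was called lower, and at 1.54 at 3 days. XPC was at −0.32 at 3 hours, where it did not pass, and at 0.82 at 3 days. The part of the p53 targets in the levels of DDB2, XPC and POLH was not tested.

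Markers of infiltrating and stromal cells moved as well. All 6 tested neutrophil markers rose at 3 hours and 1 at 3 days, and the 7 markers of that list in the table summed to 3.49 to 82.4 CPM in the controls, 1049 to 2792 CPM at 3 hours, 126 to 739 CPM at 3 days and 3.36 to 114 CPM at 14 days. The 8 monocyte and macrophage markers summed to 101 to 644 CPM in the controls, 776 to 1160 CPM at 3 hours and 1388 to 2326 CPM at 3 days, with 3 called higher at 3 hours and 4 at 3 days. At 14 days they summed to 129 to 439 CPM. Between 3 and 14 days 2 of the 8 were called lower, as were 1.59% of all genes. The 9 fibroblast markers summed to 12222 to 76529 CPM in the controls and 105381 to 125930 CPM at 3 hours. At 3 days they summed to 1390, 12116 and 65880 CPM, with TL3d replicate 1 far below every control, and none was called at either time. Epithelial markers summed to 7133 to 15492 CPM in the controls, 5727 to 10139 CPM at 3 hours and 9289 to 21934 CPM at 3 days, with 1 of 9 called higher and 2 lower at 3 hours, and 1 higher and 1 lower at 3 days. Endothelial markers summed to 63.7 to 275 CPM in the controls, 606 to 1211 CPM at 3 hours and 294 to 549 CPM at 3 days, above all controls at both times, with 2 of 5 called higher at 3 hours and none at 3 days. Goblet cell and lymphocyte markers overlapped between the groups (121.8 to 474 and 9.88 to 22.5 CPM in the controls, 189 to 915 and 9.11 to 17.7 CPM at 3 hours, 303 to 472 and 7.76 to 20.3 CPM at 3 days), and of the 7 lymphocyte markers 1 rose and 1 fell at 3 hours and 1 rose at 3 days. The part of cell composition in the repair gene results was not tested.

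**Figure D5:**
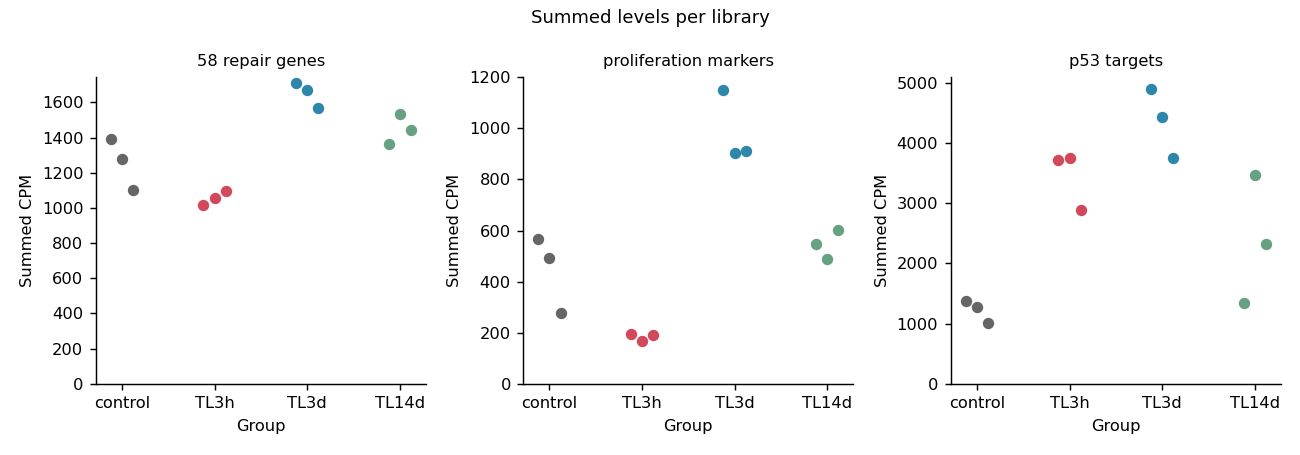
Summed level in CPM in each library (dots) of the 58 repair genes, 20 proliferation markers and 16 p53 targets, by group. The repair genes and the proliferation markers are lowest in the TL3h libraries and highest in the TL3d libraries, and the p53 targets are above the controls in all TL3h and TL3d libraries.

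Other genes of the same pathways gave a mixed picture. Of 91 listed partner genes 79 were tested, and 14 rose and 29 fell at 3 hours, 10 rose and 8 fell at 3 days, and none passed at 14 days (4 at an unadjusted p below 0.05, none with DESeq2). The shares called in either direction, 54.4% at 3 hours and 22.8% at 3 days, lay near the 45.4% and 17.6% of all genes. By direction, 22.2% of all genes were called lower and 23.2% higher at 3 hours. At 3 days 7% of all genes were called lower and 10.6% higher. Their median log2 fold change was −0.24 at 3 hours and 0.10 at 3 days. With the library size alone the 3-hour split was 7 higher and 52 lower, while the calls over all genes rose from 6733 to 7563.

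UBE2T, the enzyme that hands ubiquitin to FANCL for FANCD2, was the partner with the largest change at 3 hours, and it rose. It measured 1.40, 1.75 and 1.13 CPM in the controls, 18.9, 7.59 and 10.6 CPM at 3 hours and 9.14, 8.28 and 7.14 CPM at 3 days (log2 fold changes 3.11 ± 0.35 and 2.52 ± 0.34, q = 0.000119 and 0.00794). It was thus high at 3 hours, when FANCD2 and FANCI were low. CLSPN, the adaptor between ATR and CHEK1, went from 9.56, 7.98 and 2.93 CPM in the controls to 1.69, 1.70 and 2.05 CPM at 3 hours and 39.1, 23.7 and 24.1 CPM at 3 days (log2 fold changes -1.91 and 2.08). The nuclease DNA2 (-1.91), the helicase WRN (-1.86) and RMI2 (-1.85), which works with BLM, fell at 3 hours. GEN1, a resolvase of recombination junctions (2.01, q = 0.00851), PRIMPOL, a primase that restarts forks (1.94, q = 0.00695), and DNA2 (1.36, q = 0.0418) rose at 3 days. Between 3 days and 3 hours 28 of the 79 partners were higher and 12 lower (50.6% called, against 37.3% of all genes). The largest differences were in CLSPN (3.99), PRIMPOL (3.30), DNA2 (3.28), GEN1 (3.23) and RMI2 (3.08), and the 12 lower ones lay between −1.12 (SFR1) and −0.44 (UBE2B). Between 3 and 14 days CLSPN fell by 1.99, GEN1 by 1.63, UBE2T by 1.60 and PRIMPOL by 1.57, and TP53BP1, which guards broken ends, rose by 0.46.

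At the transcript level, 103 transcripts of the 58 genes were tested. At 3 hours 6 rose and 35 fell, where 28.3% of all transcripts were called, and at 3 days 7 rose and none fell, where 5.13% were called. None was called at 14 days (0% of all transcripts), with 3 repair transcripts at an unadjusted p below 0.05 and 1 called by DESeq2, which called 1.82% of all transcripts. Of 21 genes with at least 2 tested transcripts, none had called transcripts in both directions at any of the 3 times. At 3 days DESeq2 called 23 repair transcripts and 18.6% of all transcripts. FANCD2 had 2 of its 4 transcripts called lower at 3 hours, and BRCA1 had 2 of 3.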

How the data were processed

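Conjunctival RNA of 12 libraries was sequenced by the authors with a stranded mRNA kit and 150-base paired reads, aligned with STAR 2.6.0c to OryCun2.0 per the submitters' processing notes, and quantified per gene and per transcript with GeneData software. The deposited values are estimated counts, of which 23.4% were not whole in the gene table. They were rounded to whole numbers here, although counts had been planned for. The authors' FPKM values, deposited beside the counts, were used only to order genes by level within a group. Whether counting used the strand is not given in the sources used here.

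Groups followed the labels. Genes were filtered with filterByExpr (10 counts) and tested in one edgeR 4.0.16 quasi-likelihood fit of all 12 libraries (R 4.3.3) without covariates, with TMM scaling and Benjamini-Hochberg adjustment over all 14835 genes, as the study used edgeR. The threshold was q of at most 0.05. CPM are counts scaled to a common TMM-adjusted library size, and the SE is the log2 fold change divided by the square root of F. Intervals of counting error were not needed, since no group was wholly at or under the floor of 3 counts. Alternatives were DESeq2 1.42.0, its size factors, library size alone, other count filters, the 6 compared libraries alone, a replicate block and each library left out. The steps were tested on simulated data.

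The repair genes and the role, partner and marker lists were chosen with earlier results of these data known. Named genes were, per comparison, up to 10 past the threshold with the largest increase and up to 10 with the largest decrease (or the 3 with the lowest p), plus a set of named repair factors, and up to 5 partner genes with the largest change. Others are named to complete a role. No 2 libraries of the same group agreed within sampling noise, and libraries of different groups were not compared in this way. Same-numbered libraries deviated together in some pairs only (r from −0.16 to 0.53, over 0.1 in 8 of 18 pairs), so the numbers were not used as pairs. No sequence was used here, and 3 genes that met the rule are not reported here.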

Additional observations from a re-analysis of the deposited data

Results flagged for a closer look

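The results below stood out because 2 time points differed in a direct test of TL3d against TL3h (edgeR quasi-likelihood, adjusted over all genes), with the controls in neither arm. In all, 41 of the 58 repair genes passed that test, where 37.3% of all genes did. The largest differences upward, as log2 fold changes of 3 days over 3 hours, were 4.59 for BRCA1, 3.89 for FANCI, 3.83 for ERCC6L, 3.80 for BRIP1, 3.79 for POLQ, 3.79 for RAD51AP1, 3.07 for RAD54B, 3.07 for RAD54L, 3.07 for CHEK2 and 2.85 for DDB2. The differences downward were −2.29 for RAD52, −1.58 for MSH4, −1.11 for FANCF and −1.06 for SLX4. Each of the 41 was in the same direction in every fit that left out 1 library, and 33 of them stayed past the threshold in all of these fits. The 8 that did not were ERCC4, FANCB, FANCF, FANCL, MSH3, MSH4, RAD51D and XRCC5. Within groups of 3 libraries no test for outlying single values was made.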

How the results depend on the processing

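The counts of repair genes at 3 hours (37) and between 3 days and 3 hours (41) stayed within 1.5 times their value under every alternative run (33 to 46 and 36 to 47). The 3-day count of 18 ranged from 5 to 21 when 1 library was left out, with 10 without control replicate 1, 5 without control replicate 2, and 6 without TL3d replicate 1 or TL3d replicate 2. The 14-day count of 0 ranged from 0 to 1 when 1 library was left out (1 without TL14d replicate 1) and was 1 with DESeq2. Between 3 and 14 days the count of 5 ranged from 0 to 9 when 1 library was left out (0 without TL3d replicate 1, TL3d replicate 2 or TL14d replicate 3, 1 without TL14d replicate 1, 3 without control replicate 2, TL3d replicate 3 or any 1 TL3h library, 9 without control replicate 3). It was 17 with DESeq2, where the count over all genes rose from 332 to 1850. With the library size alone it was 3 (270 over all genes), and with the 6 compared libraries alone it was 1. Without TL14d replicate 1 the count over all genes was 67. Repair gene transcripts called at 3 days went from 7 to 23 with DESeq2, and those at 14 days from 0 to 1. Partner genes called at 3 hours went from 43 to 59 with the library size alone, split 7 higher and 52 lower against 14 and 29. Over all genes the calls went from 6733 to 7563. The replicate block gave 37 repair genes at 3 hours, 21 at 3 days, 0 at 14 days, 42 between 3 days and 3 hours and 4 between 3 and 14 days, and same-numbered libraries gave a mixed sign of pairing (median r 0.061, against −0.037 for different numbers). All 6 pairs of number 1 had a positive r (0.060 to 0.53), against 2 of 6 for number 2 and 3 of 6 for number 3, and 9 of 12 libraries correlated best with one of their own number. None of the 60 calls on named repair genes reversed its direction under the 19 alternatives, and of the recomputed values 1034 stayed past the threshold while 106 kept the direction but missed it. Values that were not called could change sign: between 3 and 14 days DDB2 ranged from −0.33 to 0.03 and FANCD2 from −0.21 to 0.07 on the log2 scale. The cause of these shifts was not tested. At this depth, MSH4 rested on 3 to 33 counts per library.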

Other observations

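Of the 58 repair genes, 14 lie on unplaced sequence, and 10 overlap another gene of the table, 1 of them on the same strand (RAD54B with FSBP). In 6 genes (FANCL, FANCI, XRCC3, ERCC1, ERCC2 and MSH6), each of which overlaps another gene, the estimated counts were fractional in every library, while 14 genes had whole counts throughout.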
